A study of Mus musculus with 17 samples.

Results

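The 10 genes described here encode the D-type cyclins (Ccnd1, Ccnd2, Ccnd3) and their kinase partner Cdk4, the CDK inhibitors p21, p27 and p57 (Cdkn1a, Cdkn1b, Cdkn1c), the cyclins G (Ccng1, Ccng2) and the pocket protein p130 (Rbl2). They were taken by name, and all 28 probe sets whose platform annotation carries one of these symbols alone were used, out of 45037 mouse probe sets and of 18193 genes with a probe set of their own. RNA of brain tissue, laser-captured dentate gyrus by the study's methods, was hybridised to Affymetrix mouse expression arrays from 8 KO and 7 WT samples. The KO animals lacked Foxo1, Foxo3 and Foxo4 through hGFAP-cre acting on floxed alleles, a driver that deletes in neurons as well as glia, and the mice were of mixed FVB and B6 background. A further KO array (mark 433) and a further WT array (mark 437) bear CA13 as an extra mark, whose meaning no source states. No age or sex is given for these samples, and the marks are read as animals without the sources saying so outright, so that p-values measure the variation among these arrays, part of which may be technical.

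D-type cyclins bind Cdk4 and Cdk6, and the complexes phosphorylate pocket proteins such as p130, which frees E2F factors to switch on genes of DNA replication. p21, p27 and p57 hold cyclin-CDK complexes in check, and the cyclins G are atypical cyclins that are linked to p53 signalling and to cell cycle exit. In dividing cells FOXO factors are known to raise p27, p130 and cyclin G2 and to lower cyclins D1 and D2. Dentate granule neurons are postmitotic, while the layer below them holds dividing progenitors, in which cyclin D2 is needed for adult neurogenesis.

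FOXO factors recognise the DAF-16 family binding element GTAAACA and, more loosely, the core TAAACA, which every GTAAACA contains. RefSeq promoter windows of 250 bases before and 50 after a transcription start (GRCm38.p6) were found for 7 of the 10 genes, in 9 windows, with none for Ccnd1, Ccnd2 and Cdkn1c. Searched on both strands, GTAAACA was held by 1199 of 32851 windows (3.65%) and by 1 of the 9 here, the first start of Ccnd3. TAAACA was held by 13.4% of all windows and by 2 of the 9, that of Ccnd3 and that of Cdkn1b. The E2F element in its forms TTTGGCGC (0.514% of all windows) and TTTCCCGC (1.07%) was in 0 of the 9. The 250 bases before both Ccnd3 starts and the Cdkn1b start are shown because Ccnd3 gave the smallest p-values of the genotype comparison and because Cdkn1b is the inhibitor best known as a FOXO target. All run 5′ to 3′ on the plus strand, and capitals mark the motif, which lies on the opposite strand. The leftmost capital stands at -243 from the start in Ccnd3 and at -17 in Cdkn1b. A match describes these letters, not a bound site.
Ccnd3, first start, chr17:47504801-47505050: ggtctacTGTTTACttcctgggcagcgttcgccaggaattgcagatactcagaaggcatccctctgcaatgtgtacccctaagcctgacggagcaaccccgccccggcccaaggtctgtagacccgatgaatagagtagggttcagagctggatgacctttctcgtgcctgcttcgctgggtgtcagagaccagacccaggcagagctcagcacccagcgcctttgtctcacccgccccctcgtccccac
Ccnd3, second start, chr17:47593217-47593466: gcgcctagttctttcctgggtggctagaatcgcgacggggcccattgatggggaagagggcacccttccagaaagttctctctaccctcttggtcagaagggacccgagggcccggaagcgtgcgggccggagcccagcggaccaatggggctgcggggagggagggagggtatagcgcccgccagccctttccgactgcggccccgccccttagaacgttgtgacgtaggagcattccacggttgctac
Cdkn1b, chr6:134920151-134920400: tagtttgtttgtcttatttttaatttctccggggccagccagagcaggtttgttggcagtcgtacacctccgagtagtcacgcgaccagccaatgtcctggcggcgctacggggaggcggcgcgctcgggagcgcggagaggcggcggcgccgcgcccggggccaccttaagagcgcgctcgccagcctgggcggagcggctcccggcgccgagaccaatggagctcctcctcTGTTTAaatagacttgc

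For each array the authors deposited linear signal intensities, 1 to a probe set, and levels below are log2(signal + 32) after quantile normalization, so that differences of dim probe sets are understated. The median signal per array lay between 88.1 and 116.5, and the number of arrays limits the precision. Foxo1 checked the labels: its brightest probe set differed by -5.08 between KO and WT (SE 0.30, limma adjusted p = 1.16e-07), with 8 of 8 KO arrays below every WT array. Foxo3 and Foxo4 gave no such clear check, since none of their probe sets had all KO arrays below every WT array. Their brightest probe sets differed by -0.46 (SE 0.17) and 0.43 (SE 0.28, mean signal 54.1), both with a limma adjusted p of 1. The other Foxo4 probe set differed by -0.56 (SE 0.18, mean signal 23.1). The other Foxo3 probe sets differed by -0.37 (SE 0.13) and -0.10 (SE 0.25). In those at -0.56 and -0.37, all 8 KO arrays lay below the WT median and 5 below every WT array. Whether these probes lie in the deleted part is not stated. Marker genes put the 2 arrays of mark 433 the other way round from those of mark 437. Granule neuron markers averaged 11.04 to 11.31 in the other 14 unmarked arrays but 7.84 in the KO array labelled 433, whose CA pyramidal markers stood at 10.66 against 7.99 to 8.67. Its partner labelled 433CA13 had 11.17 and 8.03, while in WT the array labelled 437CA13 had 7.87 and 10.6. For that reason, values that moved by over 1.5 times or changed sign without the array labelled 433 are given both ways.

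No member probe set passed the threshold between KO and WT. limma called 6 of 45037 probe sets at an adjusted p under 0.05 (0.0133%) and 0 of the 28 members, each with an adjusted p of 1. SAM, run here on the same log2 values, called 7 of 45037 probe sets and 0 members. The study's methods applied SAM to RMA values with a fold cutoff as well, so the study's own list was not repeated here. At an unadjusted limma p under 0.05, 2 of the 28 were lower in KO and 0 higher. Of all probe sets, 3.22% passed in either direction and 1.68% were lower. The log2 difference was positive for 18 and negative for 10, with a median of 0.08 beside 0.00 over all probe sets. Without the array labelled 433, Ccnd1 1417419_at, Ccnd2 1434745_at and Ccnd3 1444323_at turned from positive to negative. By brightest probe set the median over the 10 genes was 0.10, and 0.05 without that array, beside 0.01 over all genes both ways. The median SE over the members was 0.22. The 95% interval lay inside -1 to 1 for 22 of the 28, so that a change of the mean by a factor of 2 on this scale was outside it. For those with a mean signal under 100, the constant added before the log shrinks differences and intervals alike. Their intervals may therefore still hold a change of the signal itself by a factor of 2. With a pseudocount of 1, the SE of Cdkn1c (1417649_at) was 0.68 instead of 0.30. The 95% interval reached -1 for 4 probe sets, of Ccnd3 and Cdk4, and 1 for 2, of Ccnd2 and Cdkn1a. In 0 of the 28 were KO and WT arrays fully apart, a count that was not made over all probe sets. A mean signal of at least 100 was reached by 16 probe sets, and the other 12 are called dim below. In captured tissue, fewer cells of a type and less RNA per cell cannot be told apart.

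**Figure D1:**
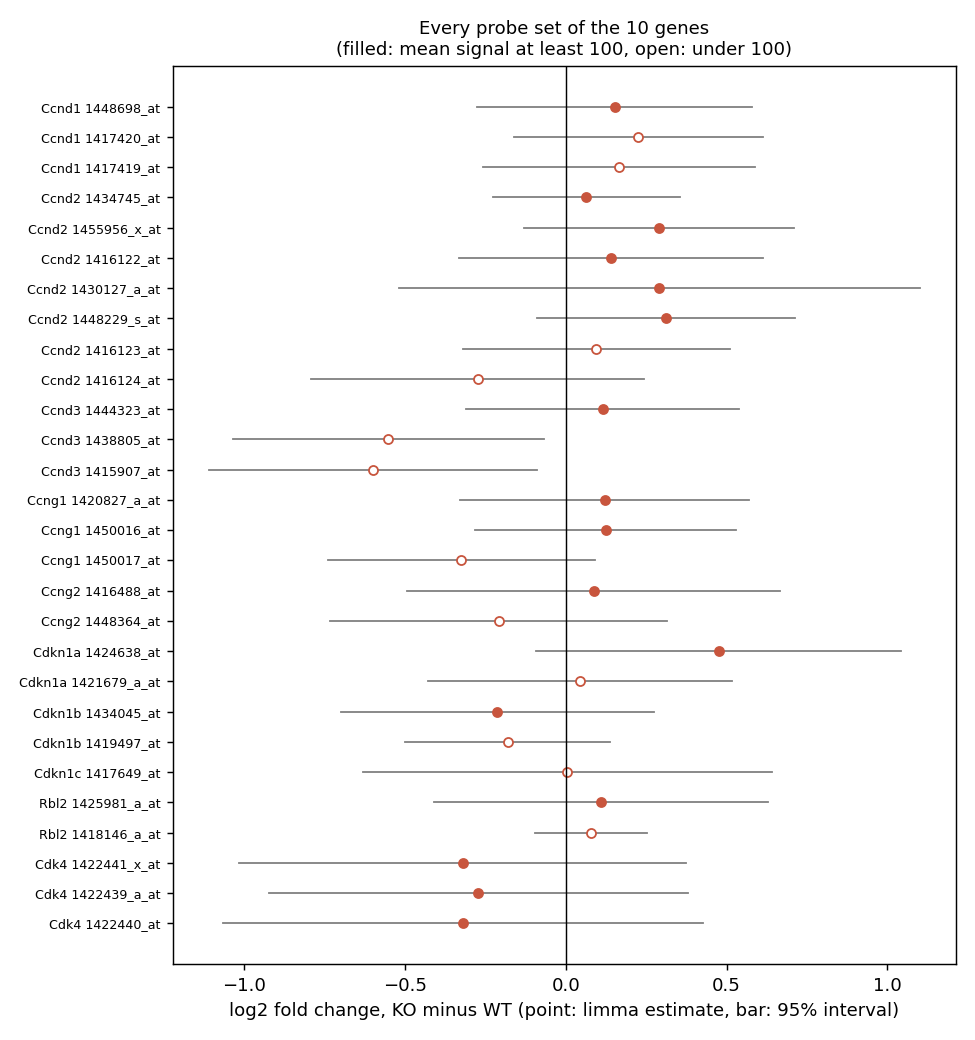
Log2 difference between 8 KO and 7 WT arrays for every probe set of the 10 genes, with points for limma estimates and bars for 95% intervals; filled points have a mean signal of at least 100, which 16 of the 28 reached. All intervals but those of 2 dim Ccnd3 probe sets cross 0.

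Cyclin D1, the D-type cyclin most tightly tied to growth factor signals, was read by 3 probe sets (Ccnd1, chr7:144929931-144939831). Its brightest, 1448698_at, ran from 8.44 over a median of 8.88 to 9.76 in KO and from 8.22 over 8.91 to 9.22 in WT. The groups overlapped, and the highest KO value came from the array labelled 433. The log2 difference was 0.15 (SE 0.20) and 0.04 without that array. The other 2 probe sets differed by 0.23 and 0.17, and the last by -0.02 without the array labelled 433, which read 6.90 where the other 7 KO arrays lay between 5.21 and 5.49.

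Cyclin D2, the family member of neural progenitors, was read by 7 probe sets (Ccnd2, chr6:127125162-127152188). The brightest, 1434745_at, ran from 10.96 over 11.29 to 11.84 in KO and from 10.84 over 11.20 to 11.56 in WT. The groups nearly coincided, with a log2 difference of 0.06 (95% interval -0.23 to 0.35) that became -0.01 without the array labelled 433. Of the 7, 6 had a positive difference, between 0.06 and 0.31, or between -0.01 and 0.23 without that array, and the dimmest pair disagreed, 1416123_at at 0.10 and 1416124_at at -0.27. The largest of the positive ones, 1448229_s_at at 0.31 (SE 0.19), had 7 of 8 KO arrays above the WT median, with a limma p of 0.12 before adjustment. Pearson correlations between the Ccnd2 probe sets over the 15 arrays ran from -0.39 to 0.74, so that they disagreed in part.

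Cyclin D3, the D-type cyclin that stays on in many differentiated tissues, gave the smallest p-values, in its 2 dim probe sets (Ccnd3, chr17:47505051-47599689). 1438805_at ran from 5.56 over 6.602 to 6.94 in KO and from 6.46 over 7.04 to 7.67 in WT. 1415907_at ran from 5.55 over 5.86 to 6.74 in KO and from 5.55 over 6.75 to 7.07 in WT. In both, all 8 KO arrays lay below the WT median, yet the ranges overlapped. The log2 differences were -0.55 (SE 0.23) and -0.60 (SE 0.24), with exact two-sided permutation p-values over 6435 regroupings of 0.03 and 0.042, unadjusted, and limma adjusted p-values of 1. Mean deposited signals were 78.2 and 47.0, and the brightest Ccnd3 probe set, 1444323_at (120.6), differed by 0.11 (SE 0.20), and by -0.01 without the array labelled 433. The 3 hardly moved together, with correlations of 0.09 to 0.19 between them over 15 arrays. Within the larger array series described below, the differences were -0.31 and -0.65, and within the smaller -1.21 and -0.38.

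Cdk4, the kinase that the D-type cyclins activate, was read by 3 probe sets that followed each other closely, with correlations of 0.91 to 0.95 (chr10:127063535-127067288). The brightest, 1422441_x_at, ran from 8.28 over 9.06 to 10.57 in KO and from 8.97 over 9.26 to 10.8 in WT, with 4 KO arrays below the lowest WT array. The differences were -0.32 (SE 0.33), -0.27 (SE 0.31) and -0.32 (SE 0.35). They moved in both directions when single arrays of the smaller array series described below were left out. Without the WT array labelled 392, the highest of all in each, they were -0.10, -0.01 and -0.12, and without the KO array labelled 390, the highest KO array in each, -0.52, -0.41 and -0.51, with an unadjusted limma p of 0.0923 at the lowest. Without the KO array labelled 433 they were -0.20, -0.18 and -0.18. Within the larger series, which holds neither 392 nor 390, they were -0.35, -0.12 and -0.33. With series as a block they were -0.28 (SE 0.21), -0.23 (SE 0.18) and -0.27 (SE 0.22).

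p21, the inhibitor that p53 induces, had the largest positive difference among the 28 (Cdkn1a, chr17:29090979-29100722). Its probe set 1424638_at ran from 8.57 over 9.82 to 10.20 in KO and from 8.35 over 9.03 to 10.19 in WT, in deposited signal a median of 901 against 488.1. Of 8 KO arrays, 7 lay above the WT median, while the top WT array, labelled 392, stood as high as the top KO array. The log2 difference was 0.48 (SE 0.27, 95% interval -0.09 to 1.04), with an exact two-sided permutation p of 0.13. Without the array labelled 392 it was 0.65, with an unadjusted limma p of 0.0165 and an adjusted p of 0.997, and the other omissions of 1 array gave values down to 0.35 (without the WT array MS17). Oligodendrocyte markers ran from 9.001 to 10.07 in WT and from 9.39 to 10.44 in the 7 KO arrays other than 433, and 8 of the 9 measured had a positive difference; their part in the Cdkn1a values was not tested. The dim Cdkn1a probe set, 1421679_a_at, differed by 0.04.

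p27, the inhibitor held to keep neurons and progenitors out of the cycle, did not pass the test (Cdkn1b, chr6:134920401-134925525). 1434045_at ran from 8.22 over 8.75 to 9.96 in KO and from 8.34 over 9.04 to 9.70 in WT. The median was lower in KO, with 6 of 8 KO arrays below the WT median, but the single highest value was the KO array labelled 433. The difference was -0.21 (SE 0.23), and -0.37 without that array, with a limma p of 0.0672 before and 1 after adjustment. Without the WT array labelled 437 it was -0.11, with an unadjusted limma p of 0.654. The dim probe set 1419497_at differed by -0.18 (SE 0.15). p57, known for imprinting and for holding progenitors quiescent, was read by 1 dim probe set with a difference of 0.00 (SE 0.30), or 0.12 without the array labelled 433 (Cdkn1c, chr7:143458339-143461059). Its KO range of 5.22 to 6.85 lay inside the WT range of 5.18 to 7.06.

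No cyclin G probe set passed the test between genotypes. Cyclin G1, a p53 target, was read brightest by 1420827_a_at, which ran from 11.22 over 12.17 to 12.42 in KO and from 10.85 over 11.99 to 12.41 in WT (Ccng1, chr11:40748552-40755309). The ranges were alike at the top, and the log2 difference was 0.12 (SE 0.21). Its other probe sets differed by 0.12 (0.06 without the array labelled 433) and -0.32, the latter with 7 of 8 KO arrays below the WT median. Cyclin G2, counted among FOXO targets in other cells, ran from 10.42 over 11.29 to 11.54 in KO and from 9.43 over 11.40 to 11.50 in WT (1416488_at, Ccng2, chr5:93267573-93276231). The difference was 0.09 (95% interval -0.49 to 0.67), and -0.18 without the WT array labelled 392, which alone stood at 9.43. Its dim probe set differed by -0.21.

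p130, the pocket protein of resting cells, differed by 0.11 (SE 0.25) in its brighter probe set (1425981_a_at, Rbl2, chr8:91070057-91123844). KO arrays ran from 6.85 over 7.22 to 7.82 and WT arrays from 6.39 over 7.02 to 7.97, so that over all arrays the KO values lay inside those of WT. The sign turned between the 2 array series described below, with -0.16 in the larger and 0.77 in the smaller, where both KO arrays (6.89 and 7.43) stood above both WT arrays (6.387 and 6.391). The other probe set had a mean signal of 5.25 and differed by 0.08.

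**Figure D2:**
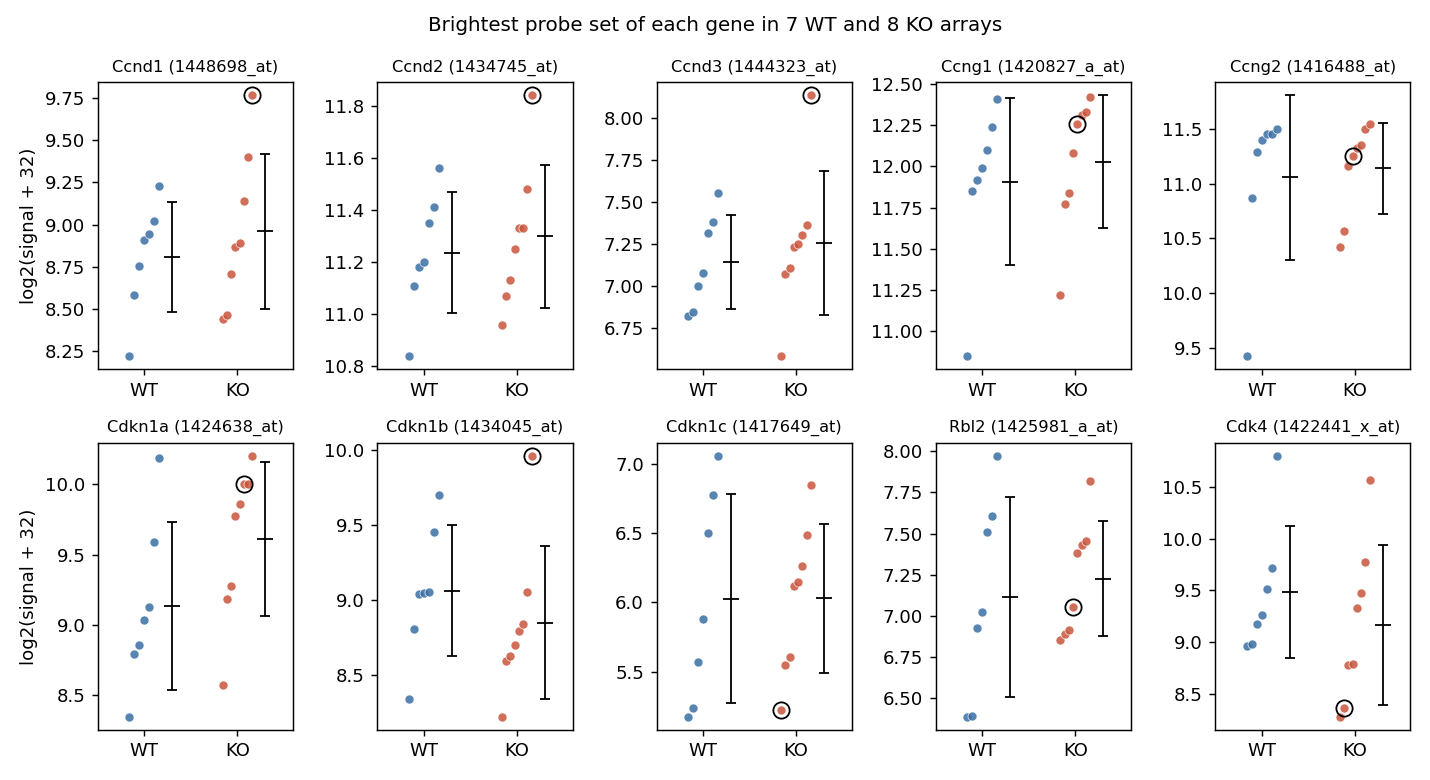
Level, log2(signal + 32), of the brightest probe set of each gene in 7 WT (blue) and 8 KO (red) arrays; points are arrays, bars beside them the mean and SD, and the ring marks the KO array labelled 433. KO and WT overlap in every panel, and the ringed array is the highest KO array for Ccnd1, Ccnd2, Ccnd3 and Cdkn1b.

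By the numbers in their labels, 11 of the 15 arrays belong to a larger array series and 4, of which 2 are KO and 2 WT, to a smaller one. With genotype in the fit, limma called 9.82% of all probe sets between the series and 5 of the 28 members (17.9%). All 3 Cdk4 probe sets were higher in the smaller series, by 1.20 to 1.33, with limma adjusted p-values of 0.00189 to 0.00489. For 1422441_x_at the 4 arrays of the smaller series ran from 9.72 to 10.8 and the 11 others from 8.28 to 9.51, with no overlap. The cyclins G ran the other way. Ccng2 (1416488_at) was lower by -1.06 (SE 0.18, limma adjusted p = 0.00219), with 9.43 to 10.87 against 11.16 to 11.54, and Ccng1 (1420827_a_at) by -0.75 (SE 0.16, limma adjusted p = 0.00888), with 10.85 to 11.85 against 11.84 to 12.42, where the ranges just touched. The Gapdh 3′ to 5′ log2 ratio, a measure of RNA quality, was 5.11 to 5.37 in the smaller series and 5.04 to 6.41 in the larger, and its part in these differences was not tested.

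Genotype differences were also read within each series. In the larger series, 5 of 6 KO arrays stood above all 5 WT arrays for Cdkn1a (1424638_at), with 8.57 to 10.20 in KO and 8.35 to 9.13 in WT, a difference of 0.71. In the smaller series the 2 KO arrays lay between the 2 WT arrays, a difference of -0.07. The test of the change in the genotype difference between the series gave an unadjusted limma p of 0.143 for it, and over all probe sets limma called 0. Of the 28 members, 2 had an unadjusted p under 0.05 for that change, beside 4.84% of all probe sets, Ccng1 1450017_at (-0.06 in the larger series and -1.002 in the smaller) and Ccng2 1448364_at (-0.54 and 0.69), both dim.

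**Figure D3:**
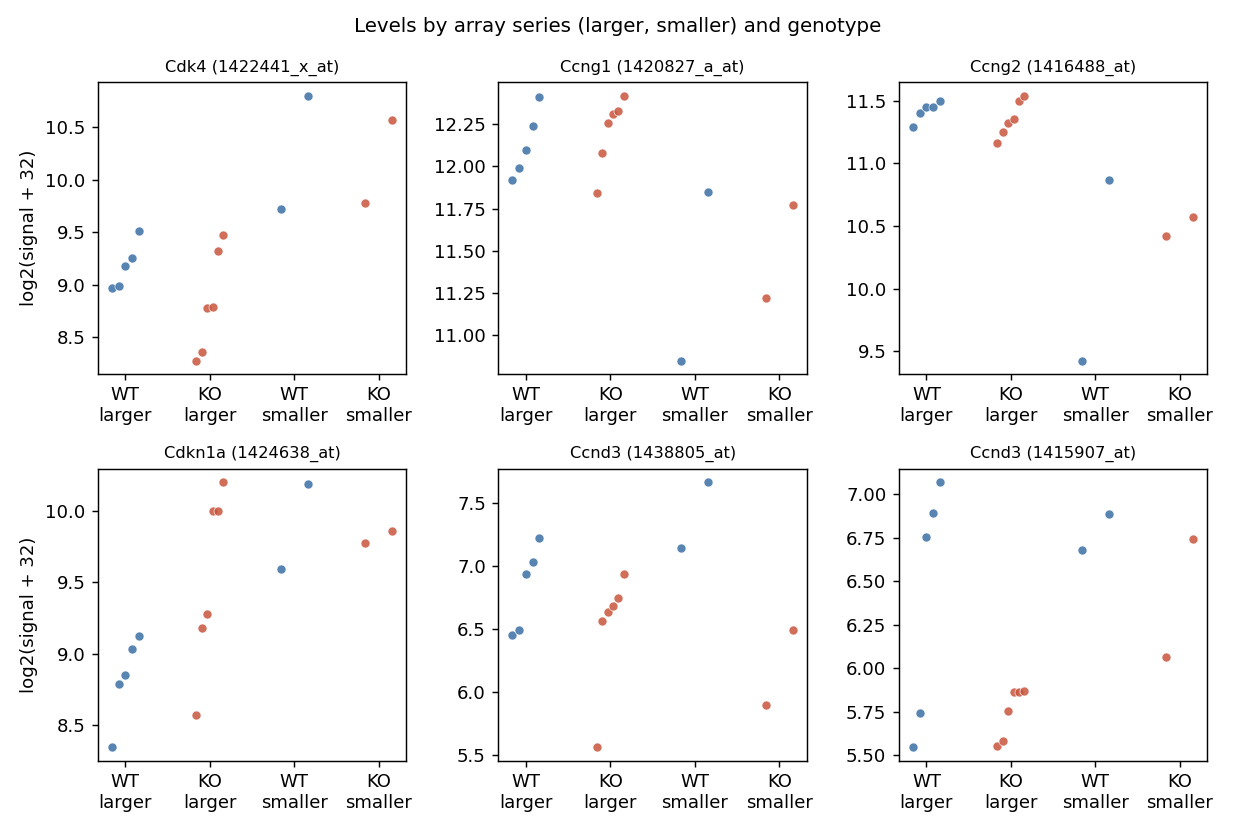
Level, log2(signal + 32), in WT (blue) and KO (red) arrays of the larger series (5 WT, 6 KO) and the smaller series (2 WT, 2 KO); each point is an array. Cdk4 stands higher and Ccng1 and Ccng2 lower in the smaller series in both genotypes, while for Cdkn1a KO exceeds WT in the larger series, where 5 of 6 KO arrays lie above every WT array, and not in the smaller.

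The CA13-marked arrays allow hippocampal fields to be set side by side, with 1 array on each side and hence no test. For these, all 17 arrays were normalized together. In WT, the array 437CA13, with CA pyramidal markers, was higher than the array 437, with granule markers, by at least 1 on the log2 scale in 5 of the 28 member probe sets (17.9%, beside 6.55% of all probe sets), and lower in 6 (21.4%, beside 6.61%). The 5 were probe sets of Ccnd1 and Ccnd2, and the 6 of Ccnd3, Cdkn1b, Cdkn1c and Cdk4. Whether sample or field sets a difference cannot be told apart from 1 array each.

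Cyclin D1 stood highest on the array 437CA13 in its 2 brighter probe sets. 1448698_at read 10.53 there and 8.59 on the array 437, a difference of 1.95, from deposited signals of 1390 and 346.3, and the 7 WT arrays without the mark ended at 9.22. The second, 1417420_at, differed by 1.89. In the dimmest, 1417419_at, 437CA13 read 5.88, under 433 (6.92) and 433CA13 (6.16). For cyclin D2, 1434745_at read 12.05 and 10.83, a difference of 1.23, and the 7 WT arrays ended at 11.56. Its probe sets 1455956_x_at and 1430127_a_at differed by 1.15 and 1.76, and the rest by 0.01 to 0.67. In 1455956_x_at the array 433CA13, with granule markers, read 10.41, above the unmarked arrays other than 433 and 437, which ended at 10.29. Cyclin D3 ran the other way in its brightest probe set, 1444323_at, at 5.37 and 7.40, while its other 2 probe sets differed by -0.25 and 0.21. The 2 arrays with CA markers went opposite ways in 1444323_at, since the array 433 read 8.15, the highest of all 17, and 433CA13 read 7.52. Cdk4 was lower on 437CA13 in all 3 probe sets, by -1.31, -1.03 and -1.09, and its 7.87 in 1422441_x_at lay under the lowest of the 7 WT arrays, 8.96. Of Cdkn1b and Cdkn1c, only dim probe sets differed by 1 or more (-1.05 and -1.31). Ccng2 (-0.06), Ccng1 (0.19) and Rbl2 (0.01) hardly differed in their brightest probe sets.

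In KO the labelled difference had the opposite sign to WT in 22 of the 28. 433CA13 was higher than 433 by at least 1 in 2 of the 28 (7.14%, beside 5.94% of all probe sets), of Cdkn1c and Cdk4, and lower in 1 (3.57%, beside 6.05%), of Ccnd2. Of the 11 probe sets that passed in WT, 10 had the opposite sign in KO. Neither count of opposite signs was made over all probe sets, so whether they are particular to the members was not tested. The array labelled 433, with CA markers, read 9.76 for Ccnd1 (1448698_at) and 433CA13 read 8.84, while for Cdk4 (1422441_x_at) they read 8.36 and 9.89. In 9 of the 28 probe sets the 2 arrays with CA markers, 433 and 437CA13, lay outside the range of the 13 other unmarked arrays on the same side, 7 above it, beside 5.88% of all probe sets, and 2 below, beside 4.86%. The 7 were probe sets of Ccnd1 and Ccnd2. The 2 were Cdk4 1422440_at and the dim Ccnd2 1416123_at, which thus went against the other Ccnd2 probe sets counted. Cdkn1b was high on both arrays of mark 433 in its brighter probe set only. Its 1434045_at read 9.95 and 10.29 on the 2 arrays of mark 433, both above the 13 others, which ran from 8.23 to 9.45. Both also stood above the arrays 437 and 437CA13 (9.69 and 9.37). Its dim 1419497_at read 5.57 and 6.06 on the arrays of mark 433, inside the 13 others (5.24 to 6.09).

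**Figure D4:**
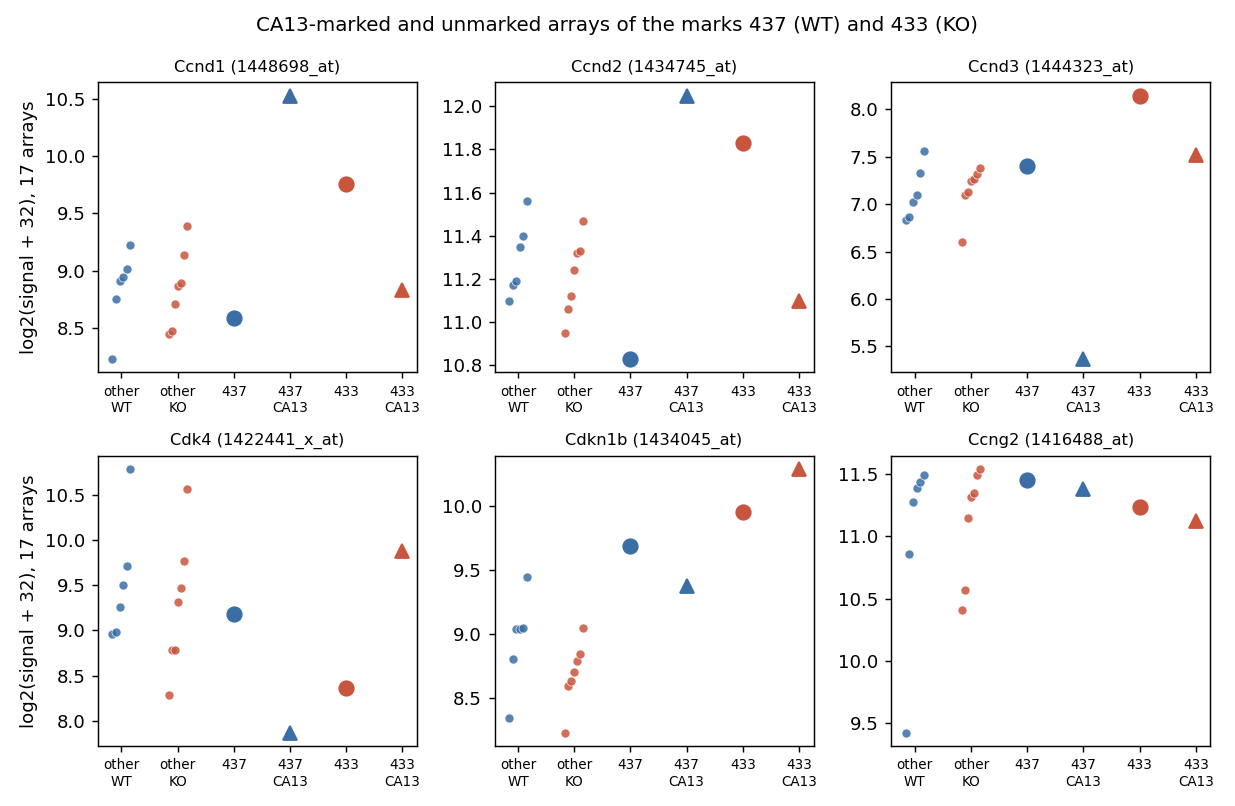
Level, log2(signal + 32) over 17 arrays, for 6 genes in the other WT (blue) and KO (red) arrays and in the unmarked (circle) and CA13-marked (triangle) arrays of marks 437 and 433. Ccnd1 and Ccnd2, in the brightest probe sets shown, are high on the arrays 437CA13 and 433, which carry CA pyramidal markers. Cdk4 is low on 437CA13, while on 433 it lies near the low end of the other arrays but inside their range.

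Other cell cycle genes showed the same lack of calls between KO and WT. Over 5 lists with 131 measured genes, each by its brightest probe set, limma called 0, and before adjustment 4 had a p under 0.05, 2 of them higher in KO and 2 lower, beside 3.05% of all genes. Without the array labelled 433 limma again called 0, and 2 were higher (Kif11, Cryab) and 4 lower (E2f8, Tgfbr1, Jun, Smad4) before adjustment. For that fit the share over all genes was not counted. Of 36 genes of the G1/S machinery, 1 passed unadjusted, E2f8, an E2F repressor, at -0.58 (SE 0.22). Its levels were low, with means of 6.08 in KO and 6.66 in WT, and its other probe set differed by 0.07. E2f3, an activating E2F, differed by 0.34, the inhibitor Cdkn2d by 0.37 and the repressor Hbp1 by 0.25 (0.17 without the array labelled 433). The list's median was -0.01 beside 0.01 over all genes, and 0.02 without the array labelled 433. Of 29 genes of S, G2 and M phase 0 passed, with a median of -0.09 (-0.04 without the array labelled 433), among them the replication licensing inhibitor Gmnn at 0.31 and the mitotic kinase Aurka at 0.33. Of 20 p53 pathway genes, to which p21 and cyclin G1 are known to respond, 1 passed unadjusted, the kinase Plk2 at 0.41 (SE 0.17), and the p53 phosphatase gene Ppm1d differed by -0.33. Without the array labelled 433 they were 0.31 and -0.20, and Plk2 no longer passed, with an unadjusted limma p of 0.0546. The other probe set of Plk2 differed by -0.11 and that of Ppm1d by 0.14. Of 25 other cyclins, CDKs and CDK5 activators, 0 passed, with Cdk5, which acts in neurons outside the cycle, at -0.41 (SE 0.30). Of 21 genes that control D cyclins and p27 through mitogen signals or degradation, the chaperone gene Cryab was at 0.57 (SE 0.23). The TGF-beta receptor gene Tgfbr1 was at -0.82 (SE 0.32), and both genes passed an unadjusted p of 0.05 only. The other probe sets of Cryab differed by 0.29 and 0.03, and those of Tgfbr1 by -0.08 and -0.15.

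The genes most like the 3 members with the smallest p-values by brightest probe set were sought by Pearson correlation over the 15 unmarked arrays among 11489 genes with a mean signal of at least 100. For Cdkn1a they were the protease gene Htra1 (0.91) and Epha10 (0.88), for Cdk4 the ribosomal protein gene Rpl4 (0.96) and Plpp5 (0.95), and for Cdkn1b Rab3gap2 (0.88) and Tox4 (0.85). Without the array labelled 433 those of Cdkn1b were 0.80 and 0.77, and the others 0.87 to 0.96. Within the 11 arrays of the larger series they were 0.89 and 0.85 for Cdkn1a, 0.86 and 0.84 for Cdk4 and 0.90 and 0.88 for Cdkn1b. Among the members themselves, Ccng1 and Ccng2 correlated at 0.85 and Ccng2 and Cdk4 at -0.84 over 15 arrays that differ in array series. Over the 11 arrays of the larger series these were -0.59 and -0.23, so that both rested on the 4 arrays of the smaller series.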

How the data were processed

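The authors deposited 1 table of signal intensity per probe set for 17 arrays on a linear scale. The submitters' processing notes name MAS5, whereas the methods name RMA and SAM; all columns were used. Gene symbols came from the platform annotation: 34945 probe sets carry 1 symbol, 932 several and 9160 none. Coordinates are those of GRCm38.p6 genes; no source used here names the genome build of the probe design. After leaving out 64 control probe sets, 32 was added, log2 taken and the 15 unmarked arrays quantile normalized (17 for the field comparison). limma 3.58.1 in R 4.3.3 (eBayes with trend, genotype alone, no filter on dim probe sets) tested 45037 probe sets, with Benjamini-Hochberg adjustment and a threshold of 0.05; the steps were tested on simulated data. Permutation tests ran over all 6435 regroupings of the arrays. The members, gene lists and rules for naming genes (every member probe set; up to 4 genes per list by smallest p; the 2 nearest genes of 3 members) were chosen with earlier results of these data known. Alternatives covered scaling, pseudocount, dim probe sets, array 433, array series, RNA quality, array weights, variance trend, SAM, probe set means and leaving out each array.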

Additional observations from a re-analysis of the deposited data

Results flagged for a closer look

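Of 56 tests of whether 1 array stood apart from the rest of its genotype group, 8 did. The nominal rate is about 1 in 20 groups, but the tests share arrays, and no share over all probe sets was counted. Whether 8 flags are more than usual for these arrays was therefore not tested. The WT array labelled 392, of the smaller array series, accounts for 3 of them: Cdk4 1422441_x_at at 10.8 (the other 6 WT arrays 8.97 to 9.72), Ccng1 1420827_a_at at 10.85 (11.85 to 12.41) and Ccng2 1416488_at at 9.43 (10.87 to 11.5). The KO array labelled 433 stood apart for Ccnd1 1417419_at at 6.90 (the other 7 KO arrays 5.21 to 5.49). The KO array 390 read 6.74 for Ccnd3 1415907_at (5.55 to 6.06), so that the KO group without it lay still lower. The KO array 212 read 7.26 for Ccng1 1450017_at (6.498 to 6.85), the WT array 393 read 5.29 for Ccng2 1448364_at (6.41 to 7.09), and the KO array 391 read 5.65 for Rbl2 1418146_a_at (5.11 to 5.29), all 3 in dim probe sets.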

How the results depend on the processing

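No member was called under any of the 14 alternatives or when any of the 15 arrays was left out, and the smallest adjusted p over them all was 0.991. Calls over all probe sets numbered 6, but 3 in the larger array series alone, 0 in the smaller alone, and 3 to 8 with 1 array left out, the lowest without WT 437. The WT field count of 11 fell to 6 with the larger pseudocount, which shrinks dim differences by construction. Of 380 genotype differences under alternatives, 26 changed sign, none of them called, and the cause was not tested. Cdkn1c became -0.018 with the larger pseudocount, -0.015 with series as a block, -0.19 in the larger series and -0.075 with RNA quality. Without the array labelled 433, Ccnd1 1417419_at became -0.025, Ccnd2 1434745_at -0.014 and Ccnd3 1444323_at -0.012. With 433CA13 in its place Ccnd2 1434745_at became -0.028 and Cdkn1a 1421679_a_at -0.0027. In the larger series Ccng2 1416488_at became -0.061 and Rbl2 1425981_a_at -0.16. In the smaller, Ccnd1 became -0.090 and -0.11, Ccnd2 -0.083 and -0.10, Cdkn1a -0.067 and -0.093, and Ccng2 1448364_at 0.68. With array weights Ccng2 1416488_at became -0.097. Without 433 and 392 together, an alternative chosen after seeing the data, Ccnd2 1434745_at became -0.020, Ccng1 -0.088 and -0.016, Ccng2 -0.20 and Cdk4 0.014, 0.080 and 0.019. As means over probe sets Ccnd3 became -0.35, Ccng1 -0.027 and Ccng2 -0.061. Leaving out 1 array turned the sign in 23 of 420 values. The ranges were -0.025 to 0.22 for Ccnd1 1417419_at, -0.014 to 0.12 and -0.022 to 0.18 for Ccnd2 1434745_at and 1416123_at, -0.012 to 0.21 for Ccnd3 1444323_at, -0.055 to 0.24 for Ccng1 1420827_a_at, -0.18 to 0.19 for Ccng2 1416488_at, -0.056 to 0.22 for Cdkn1a 1421679_a_at, -0.14 to 0.18 for Cdkn1c and -0.013 to 0.25 for Rbl2 1425981_a_at. The negative Ccnd3 differences ran from -0.76 to -0.51 (1415907_at) and from -0.64 to -0.43 (1438805_at). No paired analysis was possible because the KO and WT arrays share no mark. Signal limits 12 of the 28 probe sets, whose mean is under 100.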
